A study of Mus musculus with 4 samples.

Results

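The genes described here encode the SR proteins and the heterogeneous nuclear ribonucleoproteins (hnRNPs), the 2 large families of RNA-binding proteins that steer splicing. They were taken from a table of read counts per gene as the protein-coding genes whose symbol is Srsf followed by a number, or starts with Hnrnp. This gave 32 of the 14934 genes in the table, of which 11 were SRSF genes and 21 were HNRNP genes.

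The counts come from CD8 T cells that were sorted by flow cytometry out of hepatocellular carcinoma in wild-type mice. One group was JAML-positive and the other, JAML-negative, is called CON in the sample titles. JAML is a junctional adhesion molecule-like receptor of the immunoglobulin superfamily on the cell surface. Each group had 2 libraries, lettered A and B, prepared with the SMARTER mRNA-Seq kit out of total RNA, and no treatment is recorded for either group. Whether the letters stand for separate animals, pools or sorts is not stated, nor is how the tumours arose or how old the mice were. The p-values below therefore reflect library-to-library spread alone, estimated for each gene with information shared across genes, and that spread may be technical.

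SR proteins carry RNA recognition motifs and a tail rich in arginine and serine. They bind exonic enhancers and recruit the spliceosome, and phosphorylation of the tail by SRPK and CLK kinases controls their activity and their place in the nucleus. The hnRNPs coat nascent transcripts and often oppose SR proteins by silencing exons, although single members of either family can do both. In T cells, activation changes the splicing of many transcripts, and the choice of CD45 exons by hnRNP L and hnRNP LL is a classic case. Many SR genes also limit their own level through poison exons, whose inclusion sends the transcript to nonsense-mediated decay.

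Library totals lay between 27530187 and 30569728 counts. The JAML-positive A library stood apart from the others, with 11.6% of its counts on ribosomal protein genes against 7.15% to 7.97%, and with Malat1, a nuclear RNA, at 0.0703% against 0.120% to 0.147%. Jaml itself had 131 and 117 counts per 1000000 (CPM, scaled between libraries with TMM factors) in the JAML-negative libraries and 138 and 147 CPM in the JAML-positive ones, so transcript level separated the sorted groups little. Summed CPM of 5 CD8 T cell markers were 2856 and 2895 for the JAML-negative libraries, against 3346 and 2886 for the others. All 6 proliferation genes examined had higher means in JAML-positive cells, with summed CPM of 1550 and 1612 against 2103 and 2436. Markers of other cells differed in both directions. The 4 MHC class II genes, all with higher means, summed to 64.1 and 51.9 CPM without JAML and to 352 and 194 CPM with it. Of 8 plasmacytoid dendritic cell and phagocyte markers 5 had higher and 3 lower fitted values, with sums of 100.2 and 104 against 275 and 216 CPM. The gap in that sum came from Siglech (5.70 and 0.472 against 56.4 and 48.8 CPM) and Mpeg1 (7.50 and 13.9 against 119 and 89.6 CPM), while Lyz2, Itgam and Adgre1 were on the lower side. The 3 B and plasma cell markers tested, Ms4a1, Jchain and Mzb1, all had higher means, with Jchain at 4.57 and 0.327 against 98.5 and 51.0 CPM, while Cd79a had at most 4 counts in any library. The 4 hepatocyte markers summed to 23.9, 4.25, 14.5 and 14.9 CPM, most of it Alb. Apoa1, another of them, had 4.74 CPM in JAML-negative A and 0 in every other library. The 2 NK cell markers summed to 89.9 and 66.4 against 55.1 and 74.1 CPM. The 2 endothelial markers summed to 126 and 146 against 100.2 and 133 CPM, most of it Pecam1. Cdh5, the other endothelial marker, had 0.389 and 0.218 against 0.265 and 9.82 CPM. The helper T cell genes Cd4 and Foxp3 summed to 125.5 and 125 against 144 and 173 CPM, most of it Cd4. Foxp3 had 1.06 and 4.65 against 10.1 and 0 CPM. The part of these differences in the results on splicing genes was not tested.

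The sequences just upstream of some of these genes are shown because 3 short promoter elements occurred in different shares of the families' windows. RefSeq windows of 300 bases around the transcription start (GRCm38.p6, 250 of them upstream) matched 30 of the 32 genes, with more than 1 window for 6 of them, which gave 14 SRSF and 28 HNRNP windows. Both strands were searched. The GC box GGGCGG, the letters bound by Sp1-type factors, lay in 92.9% of the SRSF and 75% of the HNRNP windows, against 35.7% of all 32851 windows. The CCAAT box, bound by NF-Y, lay in 28.6% of the SRSF windows and 64.3% of the HNRNP windows, against 37.4% of all. Windows of 1 gene can overlap, so they are not independent of each other. Base composition differed too, with a median GC content of 69.0% for SRSF, 64.8% for HNRNP and 52.7% for all windows.

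In the stretches printed here, capitals mark matches to a GC box (GGGCGG, or CCGCCC on the other strand), a CCAAT box (CCAAT or ATTGG) or an ETS-type site (CCGGAAG or CTTCCGG). Each runs 5′ to 3′ along the gene's strand and holds up to 120 bases upstream of the outermost RefSeq start, clear of annotated GENCODE exons. Among them are 3 SRSF genes, Srsf4 (chr4:131873410-131873529, plus strand), Srsf6 (chr2:162931388-162931507, plus strand) and Srsf9 (chr5:115327043-115327162, plus strand), whose stretches held GC boxes and no CCAAT box.
Srsf4: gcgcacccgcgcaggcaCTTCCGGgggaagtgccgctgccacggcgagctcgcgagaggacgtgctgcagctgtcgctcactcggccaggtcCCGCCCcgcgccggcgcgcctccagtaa
Srsf6: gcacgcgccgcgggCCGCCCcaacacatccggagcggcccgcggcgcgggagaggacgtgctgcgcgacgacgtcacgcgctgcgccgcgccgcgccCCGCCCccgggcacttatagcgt
Srsf9: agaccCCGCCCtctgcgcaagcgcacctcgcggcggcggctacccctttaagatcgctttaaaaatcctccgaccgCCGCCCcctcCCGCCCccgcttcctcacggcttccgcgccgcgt
The other 3 are HNRNP genes, Hnrnpab (chr11:51606882-51607001, minus strand), Hnrnpc (chr14:52104040-52104159, minus strand) and Hnrnpa2b1 (chr6:51470049-51470144, minus strand). Hnrnpab and Hnrnpc each held 2 CCAAT boxes, and Hnrnpa2b1, the HNRNP gene with the smallest p-value below, had no match in its stretch of 96 bases.
Hnrnpab: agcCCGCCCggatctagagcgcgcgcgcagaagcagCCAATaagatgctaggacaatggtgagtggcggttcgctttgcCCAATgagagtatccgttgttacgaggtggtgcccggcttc
Hnrnpc: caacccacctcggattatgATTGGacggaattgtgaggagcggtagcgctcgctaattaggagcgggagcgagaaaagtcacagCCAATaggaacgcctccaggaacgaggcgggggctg
Hnrnpa2b1: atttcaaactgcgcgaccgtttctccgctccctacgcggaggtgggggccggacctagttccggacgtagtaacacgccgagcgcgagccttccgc
The ETS-type site lay in 42.9% of SRSF, 14.3% of HNRNP and 8.86% of all windows, the TATA box (TATAAA) in 14.3%, 10.7% and 13.6%, and the cyclic AMP response element (TGACGTCA) in 0%, 0% and 1.79%. A match of letters describes the window and says nothing of binding in these cells.

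Both families were abundant in every library. SRSF genes together took 0.311% and 0.358% of all counts in JAML-negative A and B, against 0.345% and 0.380% for JAML-positive A and B. HNRNP genes took 0.972%, 1.03%, 1.09% and 1.14% in the same order. The HNRNP shares did not overlap between the groups, whereas the SRSF share of JAML-negative B lay above that of JAML-positive A. After TMM scaling the SRSF sums did not overlap either, at 3066 and 3576 CPM without JAML against 3616 and 3715 CPM with it. Of all tested genes, taken singly, 38.5% had groups that did not overlap. For SRSF genes the scaled sum was 3321 ± 360.6 CPM (SD, n = 2) in the JAML-negative group against 3666 ± 70.0 CPM, which is 1.10-fold. For HNRNP genes the sums were 9932 ± 505.6 and 11290 ± 183.8 CPM (SD, n = 2), which is 1.14-fold. With 2 libraries against 2, an exact two-sided permutation test cannot give a p below 0.333, and no other test was run on these sums. In bulk libraries, fewer cells of a type and less RNA per cell cannot be told apart.

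The balance between the families differed between the groups by less than the spread between replicates. Summed HNRNP counts were 3.12 and 2.88 times the summed SRSF counts in JAML-negative A and B, and 3.16 and 3.0 times for JAML-positive A and B. The group means were 3.0 ± 0.173 and 3.08 ± 0.109 (SD, n = 2), so the difference of 0.0806 was smaller than the SD of either group. Leaving out 1 library at a time gave -0.0418 (without JAML-negative B), 0.00381 (without JAML-positive A), 0.157 (without JAML-positive B) and 0.203 (without JAML-negative A). Without the most abundant gene of each family the ratios were 3.36 ± 0.287 and 3.19 ± 0.00124 (SD, n = 2), a difference of -0.170, so the direction depended on Srsf5 and Hnrnpa2b1 and on single libraries.

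No member passed the test between the groups. In the edgeR quasi-likelihood test with Benjamini-Hochberg adjustment over all 11563 genes tested, 0 genes (0%) had an adjusted p under 0.05, and the smallest adjusted p of a member was 0.609. By limma-voom the count over all genes was also 0. At an unadjusted p under 0.05, 499 genes (4.32%) were higher and 386 (3.34%) lower in JAML-positive cells, and of the 31 members tested 1 was higher, Hnrnpa2b1, and 1 lower, Srsf12. These shares of members are near those of all genes. DESeq2 on the same counts called 536 genes higher (4.64%) and 349 lower (3.02%) at an adjusted p under 0.05, again with Hnrnpa2b1 (adjusted p = 0.0141) and Srsf12 (adjusted p = 0.00105) as the only members.

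Of the 11 SRSF genes tested, 7 had a positive and 4 a negative fold change, and their median log2 fold change was 0.20. Of the 20 HNRNP genes tested, 13 were positive and 7 negative, with a median of 0.12. Over all tested genes the median was 0.01 and 50.7% were positive. The SRSF median rested on 1 library: without JAML-negative A it was -0.087, and the number of SRSF genes with a positive value went from 7 to 5. Without JAML-negative B the medians were 0.314 for SRSF and 0.195 for HNRNP genes. Without JAML-positive A, the library rich in ribosomal protein counts, the medians were 0.173 for SRSF and 0.089 for HNRNP genes.

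The groups did not overlap for 14 members. Of these 10 were higher in both JAML-positive libraries, namely Srsf2, Srsf3, Hnrnpa1, Hnrnpa2b1, Hnrnpab, Hnrnpc, Hnrnpk, Hnrnpm, Hnrnpu and Hnrnpul1, where 20.3% of all tested genes were. The other 4 were lower, Srsf12, Hnrnpa3, Hnrnpdl and Hnrnph1, where 18.2% of all genes were. Among genes with a mean of at least 100 CPM, 10 of 27 members were higher without overlap, against 18.8% of all 2252 such genes, and 3 were lower, against 24.8%. For 10 of 31 members the difference of the group means on the log2 scale exceeded the A to B difference within each group, against 25.1% of all genes. By family, the groups did not overlap for 11 of 20 HNRNP genes (55.0%) and 3 of 11 SRSF genes (27.3%), against 38.5% of all tested genes.

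**Figure D1:**
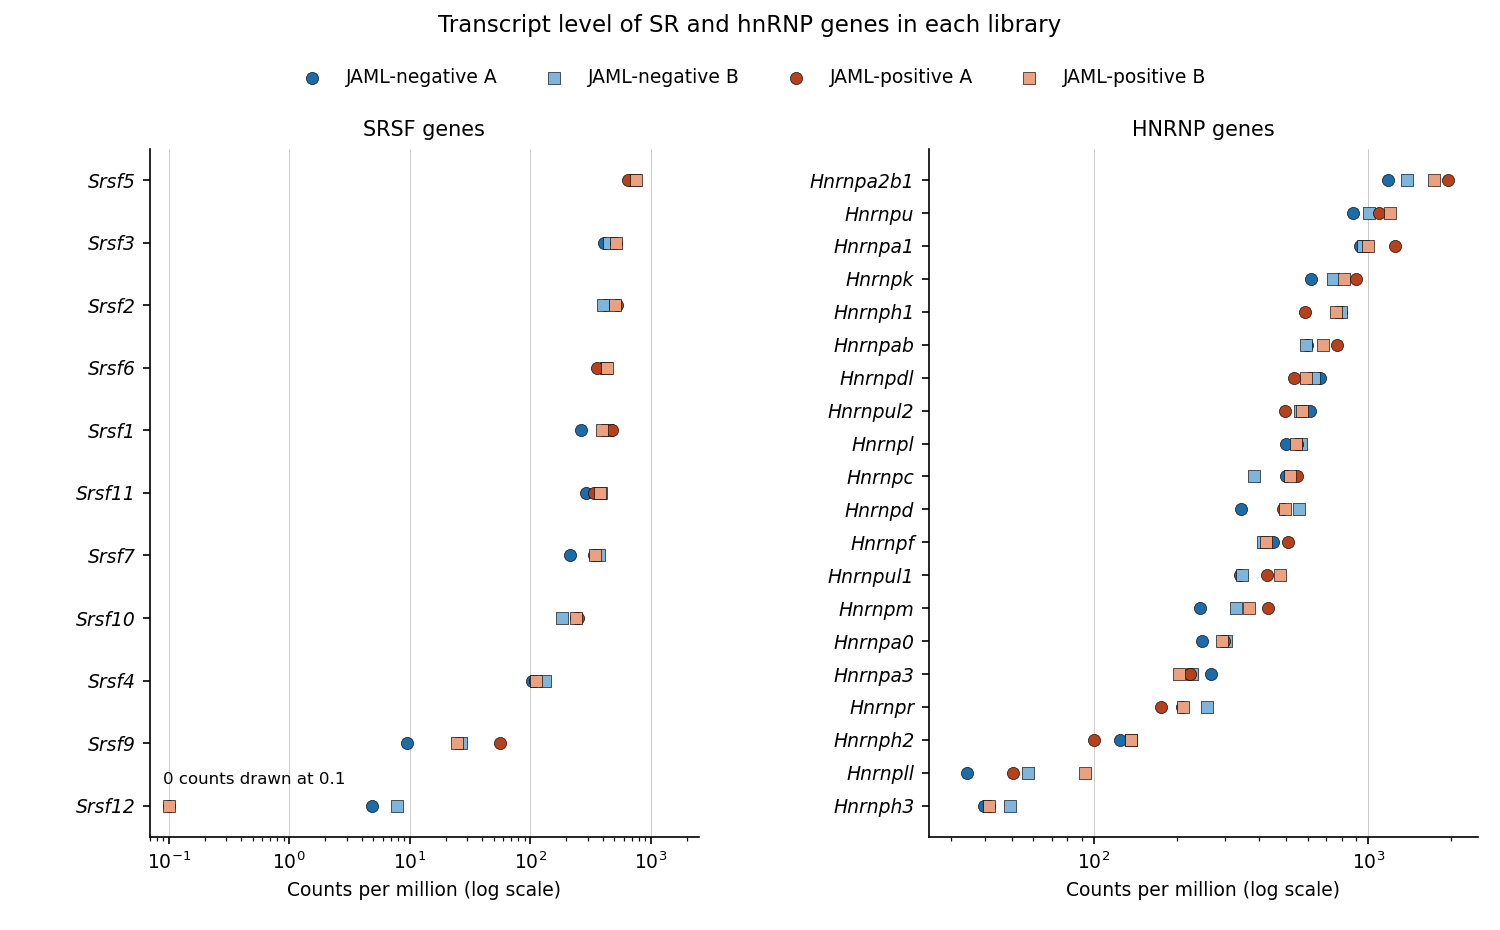
CPM of each tested SRSF gene (left) and HNRNP gene (right) in the 4 libraries, on log axes, with genes ordered by their mean and 0 counts drawn at 0.1. Hnrnpa2b1 lies between 1176 and 1954 CPM with the JAML-positive points to the right, and Srsf12 has points above 0 only in the JAML-negative libraries.

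SR proteins with a single RNA recognition motif include Srsf2, Srsf3 and Srsf7, and all 3 had higher means in JAML-positive cells. Srsf2, known as SC35 and a component of nuclear speckles, had 415 and 404.5 CPM in JAML-negative A and B, against 523 and 504 CPM for JAML-positive A and B. Its libraries agreed closely within each group, with means of 409.6 ± 7.18 and 514 ± 13.7 CPM (SD, n = 2). The fold change was 1.25 (95% interval 0.926 to 1.70 by edgeR), the log2 fold change 0.33 with an SE of 0.20, and the adjusted p 0.678 (edgeR, Benjamini-Hochberg). Exons of Mettl23 and Mfsd11 on the opposite strand cover 15.6% and 9.7% of the exonic bases of Srsf2, and the handling of strand in the counting is not given in the sources used here. Srsf3, the shortest classical SR protein and one that couples splicing to mRNA export, had 412, 447, 519 and 520.5 CPM in the same order of libraries. Srsf7, a close relative of Srsf3, had 215, 374.5, 336 and 347 CPM. Srsf3 was higher in both JAML-positive libraries, while for Srsf7 JAML-negative A was low and the other 3 libraries were alike, so that without this library the log2 fold change was -0.13 in place of 0.21.

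Among the SR proteins with a pair of RNA recognition motifs, Srsf1, Srsf4, Srsf5, Srsf6 and Srsf9, 2 had higher and 3 lower means, and none separated the groups. Srsf1, the founding family member also called SF2 or ASF, had 263, 435, 480.0 and 392 CPM. Its 2 JAML-positive values lay on either side of JAML-negative B. Srsf5 was the most abundant SRSF gene per transcript length, at 477 CPM per kilobase, ahead of Srsf2 at 286 and Srsf6 at 201. Srsf5 had 706, 749, 645 and 756 CPM, with a log2 fold change of -0.05 (SE 0.20, edgeR adjusted p = 0.967). Srsf6 had 405, 423, 359.5 and 437 CPM, with a log2 fold change of -0.05 (SE 0.21, edgeR adjusted p = 0.969). For both genes JAML-positive A was the lowest library and JAML-positive B the highest. Their 95% intervals by edgeR, 0.715-fold to 1.30-fold for Srsf5 and 0.700-fold to 1.33-fold for Srsf6, still allow differences of that size.

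Srsf4, another classical SR protein, had 104, 134, 109 and 112 CPM. Exons of the noncoding Gm12992 on the opposite strand cover 43.0% of its exonic bases; without strand in the counting, reads from the 2 genes could not be told apart there. Srsf9 varied most among the members with counts in every library. It had 271 and 732 counts in JAML-negative A and B, against 1501 and 769 for JAML-positive A and B, which is 9.59, 26.6, 56.8 and 24.6 CPM. JAML-negative B and JAML-positive B were alike and the A libraries lay on opposite sides of them. The JAML-negative mean was 18.1 ± 12 CPM and the JAML-positive mean 40.7 ± 22.8 CPM (SD, n = 2). The fold change of 2.21 had an interval of 0.843 to 5.80 (log2 fold change 1.15, SE 0.64, edgeR adjusted p = 0.631). The log2 fold change was 0.46 without JAML-positive A, 0.60 without JAML-negative A and 2.08 without JAML-negative B.

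Srsf10, Srsf11 and Srsf12 are classed apart from the core SR proteins. Srsf10, which represses splicing when it is dephosphorylated, had 239, 185, 249.6 and 238 CPM. Srsf11 had 292, 389, 338 and 384 CPM. In both genes the groups overlapped. Srsf12 was the one tested member with counts in a single group, with 138 and 218 counts in JAML-negative A and B and 0 counts in both JAML-positive libraries. Its mean was 6.40 ± 2.15 CPM (SD, n = 2) in JAML-negative cells, at least 61.1-fold higher than 3 counts per library would give in JAML-positive cells. In edgeR the unadjusted p was 0.0365 and the adjusted p 0.609. The fitted log2 fold change of -10.50 (SE 4.43) depends on the small count added to the zeros and is no measure of size. Such a pattern was not particular to Srsf12: 38 tested genes (0.329%) had 0 counts in both JAML-positive libraries and at least 100 in both JAML-negative ones, and 77 had the opposite pattern. Libraries of 1 group also differed in this way, since 389 genes had 0 counts in JAML-negative A and at least 100 in JAML-negative B, and 240 had 0 in JAML-positive A and at least 100 in JAML-positive B.

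The hnRNP A/B group includes the most abundant members. Hnrnpa2b1, which binds UAG-containing RNA and takes part in sorting of RNAs, ranked first of all 32 genes at 948 CPM per kilobase. It had 1176 and 1379 CPM in JAML-negative A and B, against 1954 and 1740 CPM for JAML-positive A and B. Both JAML-positive values lay above both JAML-negative ones, and the gap between groups was larger than either gap within a group. The means were 1277 ± 143 and 1847 ± 151 CPM (SD, n = 2), a fold change of 1.45 with an interval of 1.08 to 1.93. The log2 fold change was 0.53 (SE 0.19), with an unadjusted p of 0.0164 and an adjusted p of 0.609 by edgeR with Benjamini-Hochberg adjustment. The direction was the same without each library in turn, with log2 fold changes between 0.42 and 0.66.

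Hnrnpa1, the prototype of splicing silencers, was second at 595 CPM per kilobase and had 931, 958, 1247 and 999 CPM. The JAML-positive libraries lay above the others, but JAML-positive A stood far above B (log2 fold change 0.25, SE 0.20, edgeR adjusted p = 0.776). Without JAML-positive A the log2 fold change was 0.09, and without JAML-positive B it was 0.40. Counts of Hnrnpa1 are uncertain, since it has many processed pseudogenes with nearly the same sequence. Hnrnpa3, a close relative, had 266, 227.5, 223 and 204 CPM, with both JAML-positive values slightly below the JAML-negative ones. Hnrnpa0, which binds AU-rich elements, had 248, 304, 298 and 292 CPM, and 3 of its 4 libraries were nearly equal. The remaining HNRNP gene, Hnrnpa1l2-ps2, had 1, 2, 0 and 0 counts, too few to be tested, and both groups were at or under 3 counts.

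The hnRNP D group, whose founder is the AU-rich element binding protein AUF1, was split in direction. Hnrnpab had 595, 591, 766 and 684 CPM, so the JAML-negative libraries were nearly equal and both others were higher. Exons of Phykpl on the opposite strand cover 29.1% of its exonic bases. Hnrnpd, the AUF1 gene, had 344, 558, 488 and 497 CPM, and its low JAML-negative A value set the sign: without it the log2 fold change was -0.18 in place of 0.13. Hnrnpdl had 664, 632, 535 and 592 CPM and was lower in both JAML-positive libraries.

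Hnrnpc and Hnrnpm were both higher in the JAML-positive libraries. Hnrnpc, which binds uridine tracts and shields transcripts from cryptic exons, had 499, 382, 549 and 516 CPM, with JAML-negative B as the low library. Hnrnpm, which favours GU-rich sites, had 243, 328, 431 and 367 CPM. Its means were 286 ± 60.2 and 399 ± 45.1 CPM (SD, n = 2), a fold change of 1.40 (interval 0.985 to 1.98). On the log2 scale the difference was 0.48 (SE 0.23), at an edgeR adjusted p of 0.609, with the second smallest unadjusted p of the family. It was 0.28 without JAML-negative A and 0.72 without JAML-negative B. Exons of March2 on the same strand cover 14.7% of the exonic bases of Hnrnpm. Hnrnpk, a poly(C)-binding protein that acts in transcription, splicing and translation, had 617, 741, 899 and 812 CPM and was also higher in both JAML-positive libraries.

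The hnRNP F/H group binds G-rich runs, and 3 of its 4 genes had lower means in JAML-positive cells. Hnrnph1 followed them among the HNRNP genes at 331 CPM per kilobase and had 797, 797, 586 and 762 CPM. The JAML-negative libraries were equal and JAML-positive A alone was far below them, with a log2 fold change of -0.24 (SE 0.21, edgeR adjusted p = 0.796). This value was -0.06 without JAML-positive A and -0.44 without JAML-positive B. Hnrnph2 had 125, 137, 100 and 137 CPM, again with JAML-positive A low. Hnrnph3 had 39.5, 49.4, 41.4 and 41.4 CPM. Hnrnpf was the exception, with 451, 413, 507.5 and 425 CPM. In these 3 genes the groups overlapped, and exons of 4933440N22Rik on the opposite strand cover 13.5% of Hnrnpf.

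Hnrnpl and Hnrnpll, the CD45 exon regulators, both had overlapping groups. Hnrnpl had 502.5, 569, 549 and 544 CPM, a fold change of 1.02 (edgeR interval 0.754 to 1.38). Hnrnpll, which is induced on T cell activation and represses the variable CD45 exons, had 34.3 and 57.6 CPM in JAML-negative A and B, against 50.7 and 92.7 CPM for JAML-positive A and B. In each group the B library was far above the A library, so the groups overlapped. The means were 46.0 ± 16.5 and 71.7 ± 29.7 CPM (SD, n = 2), a fold change of 1.58 with an interval of 0.824 to 3.04 (log2 fold change 0.66, SE 0.43, edgeR adjusted p = 0.706). Single libraries moved this value, with log2 fold changes of 0.15 without JAML-positive B, 0.32 without JAML-negative A, 1.02 without JAML-positive A and 1.08 without JAML-negative B. Hnrnpr, a relative of the RNA-binding protein SYNCRIP, had 209.9, 259, 175 and 211 CPM, with overlapping groups.

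The hnRNP U group binds both RNA and scaffold-attached DNA. Hnrnpu, its founder, had 881, 1002, 1098 and 1197 CPM and was higher in both JAML-positive libraries, with opposite-strand exons of Cox20 over 6.9% of its exonic bases. Hnrnpul1 had 341, 347.5, 426 and 475 CPM. Its means of 344 ± 4.85 and 451 ± 34.6 CPM (SD, n = 2) gave a fold change of 1.31 (interval 0.960 to 1.79, log2 fold change 0.39, SE 0.21, edgeR adjusted p = 0.615). Hnrnpul2 had 610.3, 562, 497 and 573 CPM, with overlapping groups. Exons of another protein-coding gene on the same strand cover 5.1% of the exonic bases of Hnrnpul2.

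**Figure D2:**
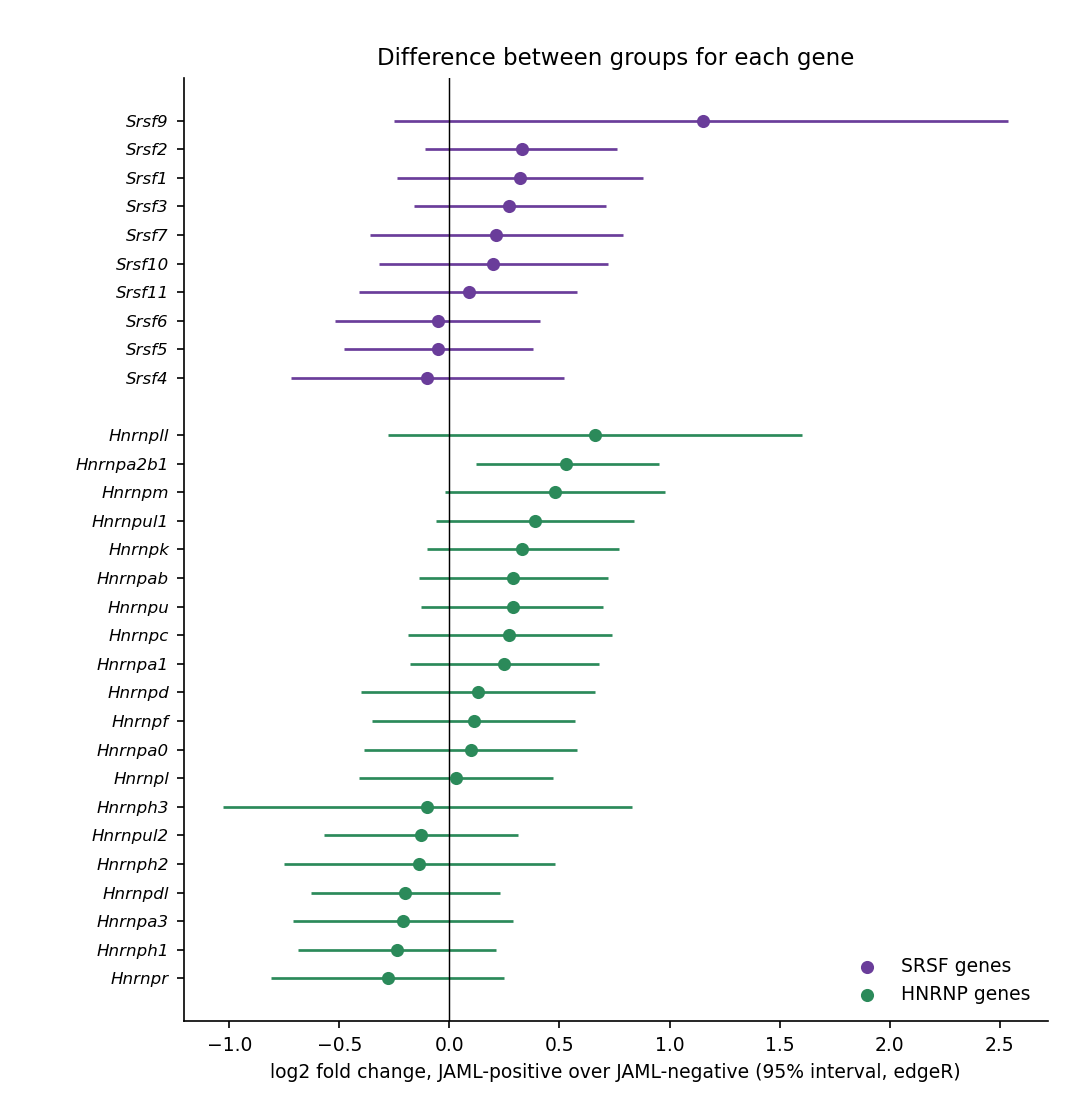
Log2 fold change of JAML-positive over JAML-negative cells for each tested member except Srsf12, whose fitted value has no fixed size; points are edgeR estimates and lines 95% intervals. The interval of Hnrnpa2b1, 0.12 to 0.95, is the only one drawn that does not include 0.

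The members, SRSF genes above all, differed more between the JAML-negative libraries than between the JAML-positive ones. The median size of the A to B difference of SRSF genes was 0.37 on the log2 scale in JAML-negative cells and 0.07 in JAML-positive cells, and 9 of 11 genes were higher in JAML-negative B than A. For HNRNP genes these medians were 0.21 and 0.16, with 13 of 20 higher in JAML-negative B. Genes with at least 100 CPM over the whole table had medians of 0.21 and 0.28, and 1197 of these 2252 genes were higher in JAML-negative B. JAML-negative A was the lowest library for 17 of the 31 tested members and JAML-positive B for 1, a count not made over all genes. The genes with the largest such gaps were Srsf9, where JAML-negative B was 2.75-fold above A, Srsf7 (1.74-fold), Hnrnpll (1.68-fold), Srsf1 (1.66-fold) and Hnrnpd (1.62-fold), leaving aside Srsf12 (1.61-fold).

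**Figure D3:**
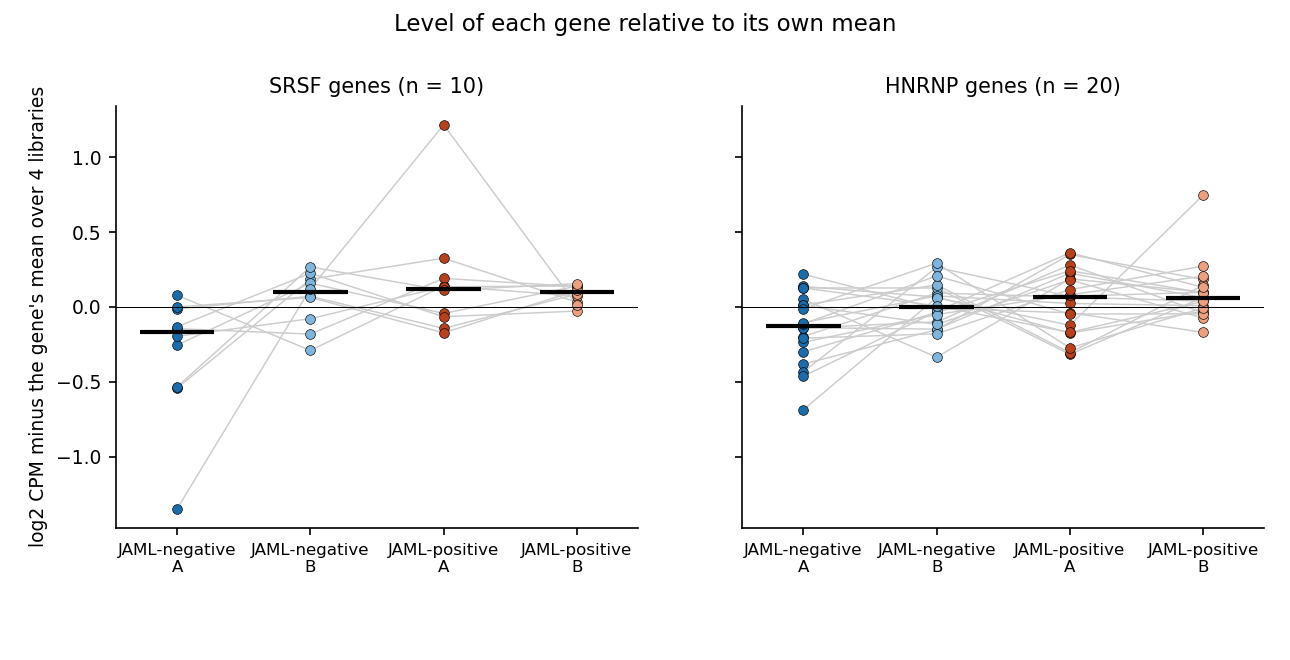
Log2 CPM of each tested member minus its own mean over the 4 libraries, without Srsf12; grey lines join the values of a gene and black bars are medians. Points of JAML-negative A lie mostly under 0 in both families, and its lowest point is Srsf9.

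Transcript length went with the fold change over the whole table. Genes under 1000 bases had a median log2 fold change of 0.26, those of 2000 to 4000 bases 0.00 and those over 8000 bases -0.25. The members lie in the middle of this range, with median lengths of 2257 bases for SRSF and 2426 bases for HNRNP genes, against 2632 bases for all tested genes. With the length trend removed the medians were 0.11 for SRSF and 0.10 for HNRNP genes, against 0.02 for all genes, and the log2 fold change of Hnrnpa2b1 was 0.43.

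The counts are per gene and do not separate isoforms, which bears on families that control themselves by poison exons. GENCODE lists a transcript of the nonsense-mediated decay class for 9 of the 11 SRSF genes (81.8%) and 10 of the 20 tested HNRNP genes (50.0%), against 30.2% of 10687 tested protein-coding genes. Counts of these genes can therefore mix coding and decay-bound transcripts in unknown parts. The families also had more listed transcripts per gene, with medians of 7 for SRSF and 8 for HNRNP against 5. The shares above were not adjusted for this.

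Other splicing genes gave the setting in which the families can be read, and 0 genes of the 6 lists below passed the edgeR test with Benjamini-Hochberg adjustment. The 2 genes with values from each list are those with its smallest p, a choice that favours genes whose groups do not overlap. Of 12 hnRNP proteins under other symbols, such as the poly(C)-binding proteins, 5 had positive and 7 negative fold changes, with a median log2 fold change of -0.04. Pcbp3 had 0 counts in both JAML-negative libraries and 180 and 360 counts in the JAML-positive ones. Pcbp4 had 31.2, 45.0, 12.9 and 12.7 CPM, a log2 fold change of -1.57 (SE 0.59). Both separated the groups, in opposite directions. In this list the groups did not overlap for 6 of 12 genes (3 higher, 3 lower), against 38.5% of all tested genes.

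Of 17 SR-related proteins 6 were positive and 11 negative, with a median of -0.12. Srrm2, the large scaffold of nuclear speckles, had 811, 861, 495 and 636.5 CPM, a log2 fold change of -0.56 (SE 0.21, edgeR adjusted p = 0.609). Rnps1, a subunit of the exon junction complex, had 76.9, 103, 182 and 131 CPM, a log2 fold change of 0.79 (SE 0.30, edgeR adjusted p = 0.609). Of 10 SR protein kinases and importins 4 were positive and 6 negative, with a median of -0.19. Srpk1, the cytoplasmic SR kinase, had 233, 242, 188 and 141 CPM, and Clk4, a nuclear SR kinase, had 149, 177, 119.9 and 118 CPM. Both kinases were lower in each JAML-positive library. Among these kinases and importins the groups did not overlap for 4 of 10 genes (1 higher, 3 lower), against 38.5% of all tested genes.

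Core proteins of the snRNPs and the spliceosome formed the longest list, and its values were not corrected for transcript length. Of 34 tested, 22 were positive and 12 negative, with a median of 0.19. Snrpa, a protein of the U1 snRNP that binds its RNA, had 41.0, 43.7, 84.5 and 97.7 CPM, a log2 fold change of 1.11 (SE 0.36, edgeR adjusted p = 0.609). Snrpd3, an Sm ring protein, had 43.8, 78.2, 142 and 96.6 CPM, a log2 fold change of 0.96 (SE 0.37, edgeR adjusted p = 0.609). Both separated the groups, although the 2 JAML-negative values of Snrpd3 lay far apart. For 17 of these 34 genes the groups did not overlap (13 higher, 4 lower), against 38.5% of all tested genes.

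Of 20 other splicing regulators 10 were positive and 10 negative, with a median of -0.01. Pspc1, a paraspeckle protein, had 37.9, 21.0, 52.8 and 69.5 CPM, and Esrp2, an epithelial regulator, had 0, 2, 32 and 170 counts. Of 15 nonsense-mediated decay factors 6 were positive and 9 negative, with a median of -0.06. Magohb, an exon junction subunit, had 5.35, 4.0, 30.3 and 30.0 CPM, a log2 fold change of 2.69 (SE 0.78, edgeR adjusted p = 0.609). Smg1, the kinase that phosphorylates UPF1, had 705, 782, 370.5 and 543 CPM, a log2 fold change of -0.70 (SE 0.23, edgeR adjusted p = 0.609). Genes of this pathway thus lay on both sides of 0.

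**Figure D4:**
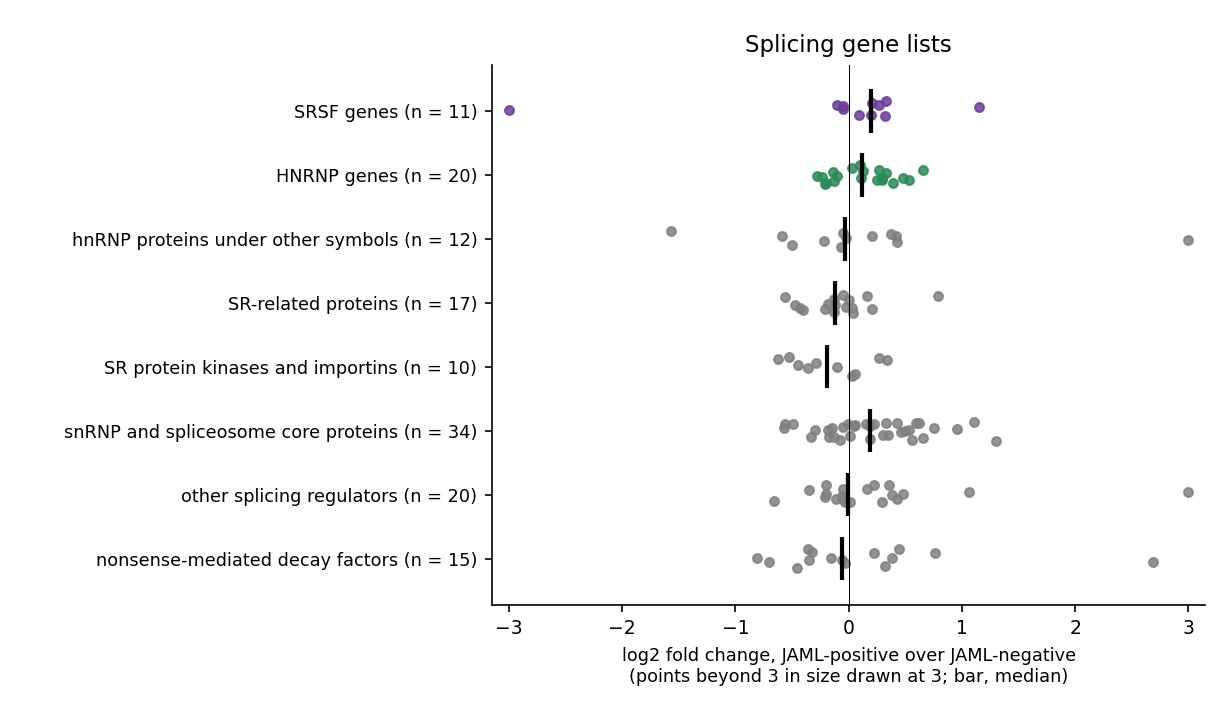
Log2 fold change (JAML-positive over JAML-negative cells) of every tested gene in the SRSF and HNRNP families and 6 other splicing gene lists, with points beyond 3 in size drawn at 3 and black bars at the medians. Medians run from -0.19 for SR kinases and importins to 0.20 for SRSF genes, and the points of all lists lie on both sides of 0.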

How the data were processed

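RNA-seq of 4 libraries was used, 2 JAML-positive and 2 JAML-negative. The authors deposited whole-number read counts per gene, on GRCm38 (mm10) per the submitters' processing notes. How reads were aligned, counted and assigned to a strand is not given in the sources used here. Depth was 27530187 to 30569728 counts, and reads carry no molecular identifiers, so limits from counts cover counting error only.

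The whole table was tested with edgeR 4.0.16 (R 4.3.3): filterByExpr with a minimum count of 10 (11563 genes left), TMM scaling, robust quasi-likelihood test without covariates, Benjamini-Hochberg adjustment, threshold 0.05. The script was tested on simulated data. SE is the size of the log2 fold change over the root of the F statistic, and 95% intervals use it. CPM are on the TMM scale, and group values are means ± SD. Only values called CPM per kilobase were divided by length, the median over GENCODE vM21 transcripts of the gene. A gene at 0 was set to 3 counts per library for a fold limit. Alternatives were other scalings, DESeq2 1.42.0, limma-voom 3.58.1, other filters, a replicate block, removal of a length trend, and leaving out each library. Members and lists were chosen with earlier results of these data known. Every member is named; full statistics are given for the 3 smallest p and the 3 highest CPM per kilobase of each family and for Hnrnpll, and 2 genes with the smallest p for each other splicing list. Of the B and plasma cell markers, 1 is not reported here.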

Additional observations from a re-analysis of the deposited data

How the results depend on the processing

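The number of genes called was 0 in edgeR, 885 with DESeq2 and 2 without a filter on low counts; of the members, DESeq2 called Hnrnpa2b1 (log2 fold change 0.52) and Srsf12 (-9.98), and the cause was not tested. The median log2 fold change of SRSF genes ran from -0.087 (without JAML-negative A) to 0.314 (without JAML-negative B) when each library was left out, and that of HNRNP genes from 0.067 to 0.195 (lowest and highest without the same 2 libraries). The difference in the ratio of HNRNP to SRSF counts ran from -0.0418 to 0.203, and it was -0.170 without the most abundant gene of each family. With the replicate letters as a block, 0 genes were called and the medians were 0.211 for SRSF and 0.135 for HNRNP genes. The letters were not taken as pairs in the main test because their meaning is not stated. The A minus B differences of the 2 groups correlated at 0.0176 across 11563 genes. Genes are not independent replicates, so this value cannot show whether the letters pair the libraries. Of 433 single-gene values under these alternatives, 418 kept their direction and, where a p was computed (not with the length trend removed), their side of the threshold, and 20 of the 31 members had no change of sign. The other 11 members changed sign without 1 library, with ranges of the log2 fold change of Hnrnpa0 -0.04 to 0.26, Hnrnpd -0.18 to 0.53, Hnrnpf -0.02 to 0.23, Hnrnph2 -0.39 to 0.07, Hnrnph3 -0.25 to 0.08, Hnrnpl -0.06 to 0.13, Srsf11 -0.11 to 0.31, Srsf4 -0.27 to 0.09, Srsf5 -0.17 to 0.06, Srsf6 -0.20 to 0.08 and Srsf7 -0.13 to 0.68, and Hnrnpl also with the length trend removed (-0.02). Intervals were widest for Srsf12, Srsf9, Hnrnpll and Hnrnph3, the tested members with the fewest counts.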
